A study of Rattus norvegicus with 18 samples.

Results

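The main arms of the miR-30 family are the mature rat microRNAs (miRNAs) rno-miR-30a-5p, rno-miR-30b-5p, rno-miR-30c-5p, rno-miR-30d-5p and rno-miR-30e-5p, and they were taken by name from a table of miRNA counts in rat liver. Of these 5 names, 4 had a row among the 401 rows of the table, and miR-30b-5p was not analysed here (the prefix rno is left out from here on). All 4 were among the 112 rows that passed a filter on low counts. The series holds 18 liver libraries in 3 groups of 6: obese ZDF rats given colesevelam, obese ZDF rats given vehicle, and lean rats with no agent named. The leptin receptor of obese ZDF rats does not signal, and the animals overeat. Colesevelam is a bile acid sequestrant, a polymer that stays in the intestine and holds bile acids back from reabsorption. All 3 groups carry an age of 8 weeks and the strain name ZDF-Leprfa/Crl. The lean rats share that strain name, so they are known as lean from their group name and phenotype alone. The sources used here give no dose, diet or length of treatment. No label says that libraries came from separate animals, and 10 of the 18 share a number in their label with another library of the same group, so the p-values measure the spread between libraries, which may be technical. In bulk liver, fewer cells of a type and less of a miRNA per cell cannot be told apart.

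The libraries were shallow and unequal in depth. Total counts ran between 32936 and 122881 in the colesevelam libraries, between 37910 and 147313 in the vehicle libraries, and between 110352 and 881452 in the lean libraries. Even miR-30c-5p, the scarcest of the 4, had at least 96 counts in each colesevelam library, 129 in each vehicle library and 639 in each lean library. Levels are CPM, counts scaled to a common library total after TMM, a method that takes most miRNAs to be alike between libraries. Every difference is therefore one relative to the rest of the miRNAs sequenced with it. The labelled tissue was checked by 8 miRNAs enriched in hepatocytes, of which 7 had a row. Their summed level was 268641 to 499979 CPM in colesevelam libraries, 217099 to 357208 CPM in vehicle libraries and 290400 to 488567 CPM in lean libraries. The largest part was miR-192-5p, with means of 194898 CPM in vehicle libraries and 267210 CPM in lean libraries. miR-122-5p averaged 38368 and 45208 CPM in the same order.

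A miRNA guides a silencing complex to messenger RNAs that pair with its seed, the bases near its 5′ end, and those messages are then translated less or degraded. Members of a family share the seed and so can share targets, while the rest of the sequence and the genomic origin differ. miR-30 members are abundant in differentiated epithelia, liver included. In mouse liver and cultured hepatocytes, miR-30c is known to repress Mttp, the transfer protein needed to load lipid onto secreted lipoproteins. In human cells miR-30a is known to repress BECN1, a gene needed for autophagy, and in cultured mouse beta cells miR-30d is known to respond to glucose and to raise insulin transcription.

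The sequences of 3 main arms are shown because they carry what the members share and what sets miR-30c-5p apart. They come from RefSeq on the rat build GRCr8 and are written 5′ to 3′, with the seed, bases 2 to 8, in capitals.
miR-30a-5p: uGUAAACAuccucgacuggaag
miR-30e-5p: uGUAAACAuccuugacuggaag
miR-30c-5p: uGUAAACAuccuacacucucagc

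Each equals the sequence in the deposited table, with U for T, while miR-30d-5p and miR-30e-3p are named without one. All 3 have the seed GUAAACA. Counted from 1 at the 5′ end, miR-30a-5p and miR-30e-5p differ at 1 of 22 bases (C13U). miR-30a-5p and miR-30c-5p differ at 5 of 22 compared bases (C13A, G14C, G18C, G19U and A20C). The same seed also stands in miR-384-5p in RefSeq, which was not analysed here.

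miR-30a-5p lies at chr9:33233946-33233967 on the plus strand, in the 5′ arm of the precursor Mir30a. miR-30c-5p has a pair of sources: Mir30c2 on the same chromosome and strand, where it lies at chr9:33253695-33253717, and Mir30c1 on the minus strand, where it lies at chr5:139634505-139634527. miR-30e-5p lies at chr5:139637504-139637525 on the minus strand. The family therefore stands in clusters. Mir30a and Mir30c2 are 19670 bp apart, Mir30c1 and Mir30e are 2906 bp apart, and Mir30b and Mir30d are 3715 bp apart. Mir30c1 and Mir30e both lie inside Nfyc, a protein-coding gene for a subunit of the CCAAT-binding factor NF-Y. Mir30b and Mir30d lie inside a long noncoding RNA gene, and Mir30c2 lies inside another. A count of miR-30c-5p cannot be assigned to Mir30c1 or Mir30c2, because both give the same mature sequence.

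The precursor Mir30a is shown because the level of each of its arms is reported below; its 5p and 3p arms are in capitals, and it spans chr9:33233941-33234011 on the plus strand.
Mir30a: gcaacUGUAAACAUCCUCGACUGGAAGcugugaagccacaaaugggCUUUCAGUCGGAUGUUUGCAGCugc

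In every one of the 18 libraries the order of levels was miR-30a-5p, miR-30d-5p, miR-30e-5p and miR-30c-5p, from high to low. By mean CPM over all libraries, miR-30a-5p ranked 11 of 112, between miR-92a-3p and let-7f-5p. miR-30d-5p ranked 13, below let-7f-5p and above miR-27b-3p. miR-30e-5p ranked 20, between miR-101b-3p and miR-151-3p, and miR-30c-5p ranked 26, between miR-126a-5p and miR-26b-5p. Together the 4 members made up 5.58% ± 0.781 of the counts in colesevelam libraries, 6.93% ± 0.892 in vehicle libraries and 6.58% ± 0.681 in lean libraries (SD, n = 6 each). Within that sum, miR-30a-5p held 58.0% ± 4.57 in colesevelam libraries, against 49.96% ± 3.21 in vehicle libraries and 48.3% ± 4.97 in lean libraries (SD, n = 6 each). The share of miR-30c-5p was 5.53% ± 0.947 in colesevelam libraries, 6.70% ± 1.04 in vehicle libraries and 8.97% ± 1.16 in lean libraries. These shares describe the make-up of the family and were not tested.

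**Figure D1:**
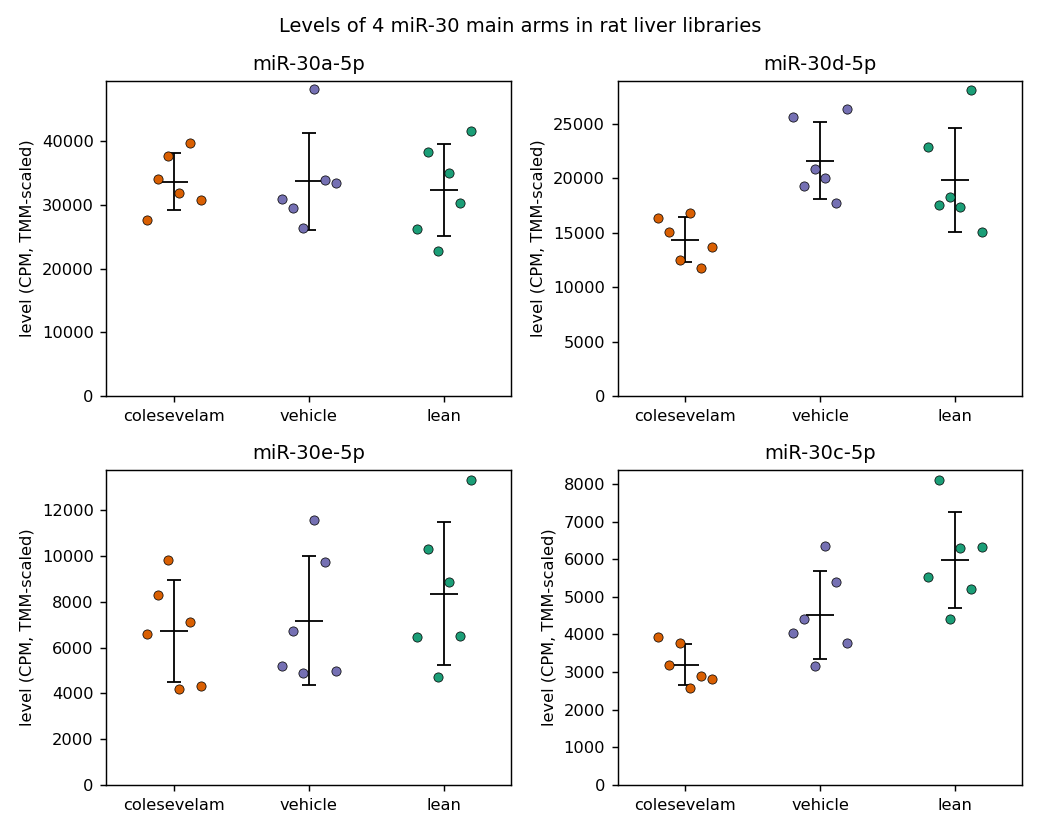
Level of the 4 main arms in each library (points, CPM after TMM scaling), with the mean and SD of 6 libraries per group; each panel has its own axis from 0. All colesevelam points of miR-30d-5p lie below all vehicle points, and all colesevelam points of miR-30c-5p lie below all lean points.

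Colesevelam was compared with vehicle in obese rats, the comparison that the series describes. miR-30d-5p fell, and the other 3 main arms did not pass the test. The level of miR-30d-5p had a lowest, median and highest value of 11741, 14370 and 16805 CPM in colesevelam libraries, against 17728, 20391 and 26303 CPM in vehicle libraries. All 6 colesevelam libraries were below all 6 vehicle libraries. The difference was −0.59 ± 0.18 on the log2 scale (SE; 1.51-fold lower; 95% interval −0.96 to −0.22), with an adjusted p of 0.0340 by the quasi-likelihood test of edgeR, adjusted over the 112 miRNAs by the Benjamini-Hochberg method. That 1 of 4 members was called lower stands beside 3.57% of all tested miRNAs called lower and 10.7% called in either direction. Non-overlapping groups were found for 5.36% of all tested miRNAs. The call was narrow: it held in 15 of 32 fits of the same data. Without any 1 of the 6 colesevelam libraries, or without vehicle library 1, 2, 3, 4 or 6, the log2 fold change was −0.57 to −0.46 and the adjusted p in edgeR was 0.0508 to 0.147. The call was also lost in edgeR with upper-quartile factors (adjusted p = 0.130), the authors' size factors (0.424), no filter on low counts (0.189), a filter at 50 CPM (0.0680), and libraries of one label number summed (0.0634). It held in edgeR with RLE factors (adjusted p = 0.0195), library totals (0.0287), miR-192-5p left out (0.00722) or only the 2 groups compared (0.0179). DESeq2 (adjusted p = 0.00141) and limma-voom (adjusted p = 0.0380) gave the call too. The estimate was below 0 in all 32 fits, and −0.71 to −0.45 in those without the authors' size factors.

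miR-30c-5p had levels of 2569, 3038 and 3923 CPM (lowest, median, highest) in colesevelam libraries and 3172, 4221 and 6354 CPM in vehicle libraries. The groups overlapped, with the lower part of the vehicle range inside the colesevelam range. The log2 fold change was −0.50 ± 0.20 (SE; 95% interval −0.91 to −0.10), with an unadjusted p of 0.0171 and an adjusted p of 0.120 in edgeR. miR-30a-5p had 27601, 32999 and 39663 CPM in colesevelam libraries and 26412, 32184 and 48161 CPM in vehicle libraries, which overlapped over most of their range. Its log2 fold change was −0.00 ± 0.18 (95% interval −0.39 to 0.38; adjusted p = 0.998 in edgeR). The interval for this most abundant member ended short of the 1.51-fold fall seen for miR-30d-5p. miR-30e-5p had 4175, 6871 and 9813 CPM in colesevelam libraries and 4869, 5971 and 11552 CPM in vehicle libraries, and these groups also overlapped widely. Its log2 fold change was −0.09 ± 0.28 (95% interval −0.68 to 0.49; adjusted p = 0.920 in edgeR), so a change of the size seen for miR-30d-5p lies within its interval. The median log2 fold change of the 4 members was −0.30, against −0.01 over all 112 miRNAs. All 4 estimates were below 0, as were 51.8% of all miRNAs, but that of miR-30a-5p was below 0 in 16 of 32 fits only.

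Colesevelam-treated obese rats were next set against lean rats. Here miR-30c-5p fell and was the 1 member called, while miR-30a-5p, miR-30d-5p and miR-30e-5p did not pass the test. The level of miR-30c-5p was 4404, 5912 and 8101 CPM (lowest, median, highest) in lean libraries, so all 6 colesevelam libraries, at most 3923 CPM, were below all 6 lean libraries. The means were 3192 ± 543 CPM in colesevelam libraries and 5977 ± 1265 CPM in lean libraries (SD, n = 6 each). The difference was −0.91 ± 0.20 on the log2 scale (SE; 1.87-fold lower; 95% interval −1.31 to −0.50), with an adjusted p of 0.00200 in edgeR. Among all tested miRNAs 9.82% were called lower, 21.4% were called in either direction, and 8.04% had groups that did not overlap. The call for miR-30c-5p held in all 32 fits, with a highest adjusted p of 0.0182, reached when the libraries that share a label number were summed. These fits include that with the authors' size factors, which called 109 of 112 miRNAs. No fit held a term for library depth, whose median was 58439 counts in colesevelam libraries and 184890 in lean libraries. Within groups miR-30c-5p had r = 0.45 with log2 depth, and the part of depth in this call was not tested.

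miR-30d-5p had 15046, 17923 and 28080 CPM (lowest, median, highest) in lean libraries, and the colesevelam libraries, at 11741 to 16805 CPM, overlapped the low end of that range. Its log2 fold change was −0.47 ± 0.18 (SE), with an unadjusted p of 0.0159 and an adjusted p of 0.0634 in edgeR. It was called in 6 of 32 fits, among them edgeR with RLE factors (adjusted p = 0.0349) and DESeq2 (adjusted p = 0.00582). In limma-voom it was not called (adjusted p = 0.0661). miR-30e-5p had 4703, 7681 and 13312 CPM in lean libraries, a range that spans most of the colesevelam values. Its log2 fold change was −0.31 ± 0.28 (95% interval −0.90 to 0.27; adjusted p = 0.455 in edgeR). miR-30a-5p had 22764, 32629 and 41523 CPM in lean libraries, which enclosed all colesevelam values. Its log2 fold change was 0.06 ± 0.18 (95% interval −0.33 to 0.44; adjusted p = 0.856 in edgeR). The median of the 4 members was −0.39, against −0.08 over all 112 miRNAs.

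Between vehicle-treated obese rats and lean rats, none of the 4 members was called by edgeR's adjusted p, while 6.25% of all tested miRNAs were called. At an unadjusted p under 0.05, 1 member, miR-30c-5p, and 18.8% of all miRNAs passed. The level of miR-30c-5p was 4521 ± 1161 CPM in vehicle libraries and 5977 ± 1265 CPM in lean libraries (SD, n = 6 each), with overlapping groups. Its log2 fold change was −0.40 ± 0.19 (SE), with an unadjusted p of 0.0494 and an adjusted p of 0.263 in edgeR. By mean level, then, miR-30c-5p was lowest with colesevelam, intermediate with vehicle and highest in lean rats, and neither pair of neighbours in that order was separated by the adjusted test. The other 3 members had log2 fold changes of 0.06 for miR-30a-5p, 0.12 for miR-30d-5p and −0.22 for miR-30e-5p, each with overlapping groups and an adjusted p of at least 0.779 in edgeR. DESeq2 and limma-voom called none of the 4 in this comparison. The 3 comparisons share their libraries in pairs, so they are not independent of each other.

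**Figure D2:**
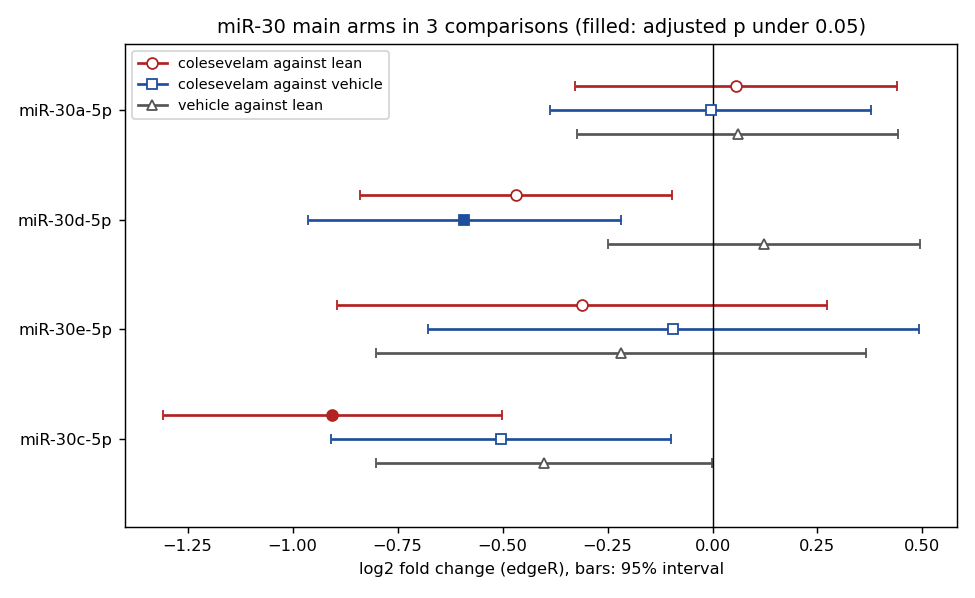
Fold change of each main arm on the log2 scale with its 95% interval (edgeR, 6 libraries a group), for colesevelam against lean, colesevelam against vehicle and vehicle against lean. Filled marks have an adjusted p under 0.05: miR-30d-5p for colesevelam against vehicle at −0.59 and miR-30c-5p for colesevelam against lean at −0.91.

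Ratios of members inside a library do not depend on scaling between libraries. For cluster partners, each pair of groups was compared with a two-sided exact permutation test, which runs through the 924 ways to split 12 libraries and can give no p below 0.00216. P-values were adjusted over 15 ratio tests. miR-30a-5p stood higher relative to miR-30c-5p, its partner on chromosome 9, in both obese groups than in lean rats. The geometric mean of the ratio was 10.6 in colesevelam libraries (range 7.02 to 13.7), 7.51 in vehicle libraries (6.30 to 8.84) and 5.39 in lean libraries (4.72 to 6.56). All colesevelam libraries were above all lean libraries, and the vehicle libraries overlapped both other groups. The ratio was 1.96-fold higher in colesevelam than in lean libraries, with a log2 difference of 0.97 ± 0.15 (SE; exact permutation p = 0.00216, the smallest possible, adjusted p = 0.0325). The ratio was 1.39-fold higher in vehicle than in lean libraries, with a log2 difference of 0.48 ± 0.11 (exact permutation p = 0.00433, adjusted p = 0.0325). For colesevelam against vehicle the log2 difference was 0.49 ± 0.15 (exact permutation p = 0.0130, adjusted p = 0.0649), which did not pass. Without lean library 1, 2, 3, 4 or 5 the log2 differences were 0.93 to 0.99 for colesevelam against lean and 0.44 to 0.50 for vehicle against lean, and both calls were lost at an adjusted exact permutation p of 0.0649. With libraries that share a label number taken as 1, the differences were 0.87 for colesevelam against lean (exact permutation p = 0.0286, the smallest possible with 4 against 4) and 0.43 for vehicle against lean (exact permutation p = 0.0317, with 5 against 4). Adjusted over 15 tests both p-values were 0.190. Designs of this size hardly allow the threshold to be passed, so the loss of these calls cannot decide whether they are stable. For vehicle against lean the unadjusted exact permutation p was nonetheless above its smallest possible value, 0.00794.

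The ratio of miR-30e-5p to miR-30c-5p, its partner on chromosome 5, had geometric means of 2.03 in colesevelam libraries (range 1.53 to 2.61), 1.53 in vehicle libraries (1.29 to 1.82) and 1.34 in lean libraries (1.07 to 2.10). The groups overlapped in all 3 comparisons, and lean library 6 lay well above the other lean libraries. The log2 difference between colesevelam and lean libraries was 0.60 ± 0.21 (SE; exact permutation p = 0.0238, adjusted p = 0.0893). The other log2 differences were 0.40 for colesevelam against vehicle (adjusted exact permutation p = 0.157) and 0.19 for vehicle against lean (adjusted exact permutation p = 0.435). Without lean library 6, the difference between colesevelam and lean libraries was 0.73 and its adjusted exact permutation p was 0.0216. The ratio of miR-30d-5p to miR-30b-5p, its cluster partner, was not analysed here. The ratio of miR-30a-5p to miR-30d-5p was not tested and had geometric means of 2.35 in colesevelam libraries (range 1.69 to 3.38), 1.55 in vehicle libraries (1.21 to 2.41) and 1.63 in lean libraries (1.08 to 2.76).

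**Figure D3:**
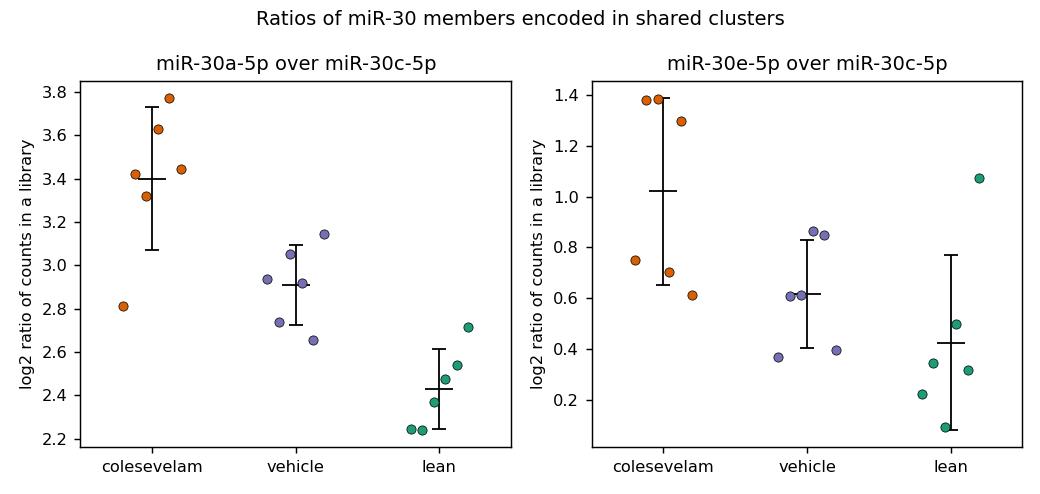
Log2 ratio of counts in each library (points) for the cluster partners miR-30a-5p over miR-30c-5p and miR-30e-5p over miR-30c-5p, with the mean and SD of 6 libraries per group; the axes do not start at 0. In the first ratio all colesevelam points lie above all lean points, while in the second the groups overlap.

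The 3p arms, cut from the other side of the same precursors, were far scarcer than the main arms. miR-30a-3p averaged 860 ± 328 CPM in colesevelam libraries, 887 ± 171 CPM in vehicle libraries and 1038 ± 182 CPM in lean libraries (SD, n = 6 each). miR-30e-3p averaged 788 ± 147, 755 ± 79.4 and 856 ± 239 CPM in colesevelam, vehicle and lean libraries, and miR-30c-2-3p averaged 132 ± 46.8, 219 ± 69.9 and 142 ± 55.0 CPM in the same order. None of these 3 was called in any comparison. miR-30c-2-3p comes from Mir30c2 alone, and its log2 fold change was −0.72 ± 0.34 for colesevelam against vehicle (adjusted p = 0.217 in edgeR) and 0.61 ± 0.31 for vehicle against lean (adjusted p = 0.302 in edgeR). Its counts were low, at 46 over the colesevelam libraries, 81 over the vehicle libraries and 229 over the lean libraries. Colesevelam library 1 held only 4 of them. miR-30d-3p, with 27 counts over the colesevelam libraries, 43 over the vehicle libraries and 269 over the lean libraries, did not pass the filter. miR-30c-1-3p, from Mir30c1 alone, had 4, 17 and 66 counts in the same order and did not pass either. Both were at 0 in some colesevelam library, where a count of 0 allows a level of up to 30.1 to 84.7 CPM (3 counts, counting error only).

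The ratio of the 5p to the 3p arm of Mir30a had geometric means of 40.6 in colesevelam libraries, 37.4 in vehicle libraries and 30.8 in lean libraries. That of Mir30e was 8.17 in colesevelam libraries, 8.91 in vehicle libraries and 9.45 in lean libraries. Both precursors thus gave mostly the 5p arm in every group, and no difference between groups passed for either (adjusted exact permutation p from 0.381 to 0.773). miR-30c-5p over miR-30c-2-3p had geometric means of 23.4 in colesevelam libraries, 20.3 in vehicle libraries and 43.5 in lean libraries, with overlapping groups. Its log2 difference was −1.10 for vehicle against lean (exact permutation p = 0.0476, adjusted p = 0.143) and −0.89 for colesevelam against lean (exact permutation p = 0.0736, adjusted p = 0.158). miR-30c-5p can also come from Mir30c1, so this ratio does not compare arms of 1 precursor alone. It also rests on the low counts of miR-30c-2-3p.

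The deposited counts of miR-30a-5p, miR-30d-5p and miR-30e-5p were not fully separate from each other. Values that end in 0.5 occurred in 8 of 18 libraries for miR-30a-5p, in 11 for miR-30d-5p and in 11 for miR-30e-5p, and in none for miR-30c-5p. In 15 libraries exactly 2 of the first 3 ended in 0.5, in the other 3 libraries none did, and their sum was whole in all 18. miR-30a-3p and miR-30e-3p likewise had 2 such values each, and their sum was whole in all 18 libraries. A read can thus have been divided between these members, and how many were divided cannot be read from the table. miR-30c-5p, with 5 base differences from miR-30a-5p, showed no such values.

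Within groups 3 of the 4 members varied together, and miR-30d-5p ran apart from them. The levels, as log2 CPM less the group mean, were correlated over the 18 libraries as a description, since these libraries share their processing and differ in depth and base composition. miR-30e-5p followed miR-30c-5p (Pearson r = 0.84) and miR-30a-5p (r = 0.79), and miR-30a-5p followed miR-30c-5p (r = 0.66). For miR-30d-5p the values were negative, with r = −0.44 against miR-30a-5p, −0.36 against miR-30c-5p and −0.58 against miR-30e-5p. The tested miRNAs most like miR-30a-5p were miR-21-5p, miR-101b-3p and miR-30e-5p (r from 0.79 to 0.81). Those most like miR-30c-5p were miR-30e-5p, miR-21-5p and miR-186-5p (r from 0.83 to 0.84). Those most like miR-30e-5p were miR-21-5p at r = 0.95, miR-101b-3p and miR-19b-3p (both r = 0.87). For miR-30d-5p they were miR-423-3p at r = 0.83, miR-92a-3p at r = 0.78 and miR-328a-3p at r = 0.75.

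The same split ran along base composition. Guanine and cytosine (GC) make up 45.5% of the bases of miR-30a-5p, 43.5% of miR-30c-5p, 40.9% of miR-30e-5p and 50% of miR-30d-5p. The miRNAs most like miR-30d-5p held 57.1% to 68.2% GC, and those most like the other 3 held 36.4% to 40.9%. A slope of log2 level on GC content was computed for each library over the tested miRNAs. Over the 18 libraries, with group means removed, this slope had r = 0.79 with the level of miR-30d-5p, −0.77 with miR-30a-5p, −0.64 with miR-30c-5p and −0.84 with miR-30e-5p. Log2 library depth had r = −0.56 with miR-30d-5p and r from 0.44 to 0.51 with the other 3. The slope averaged −0.74 ± 0.26 in colesevelam libraries, −0.55 ± 0.30 in vehicle libraries and −0.77 ± 0.26 in lean libraries (log2 per 10% GC, SD, n = 6 each). With the slope as a term in the model, miR-30d-5p differed by −0.45 between colesevelam and vehicle (adjusted p = 0.0231 in edgeR) and by −0.48 between colesevelam and lean (adjusted p = 0.00594 in edgeR). In that model miR-30c-5p differed by −0.62 for colesevelam against vehicle (adjusted p = 0.00782 in edgeR) and by −0.88 for colesevelam against lean (adjusted p = 1.1e-04 in edgeR). Over all 112 miRNAs that model called 25 between colesevelam and vehicle and 44 between colesevelam and lean, against 12 and 24 without the slope. The slope was taken from the same counts, the members included, so the adjusted p-values of that model are not an independent check.

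**Figure D4:**
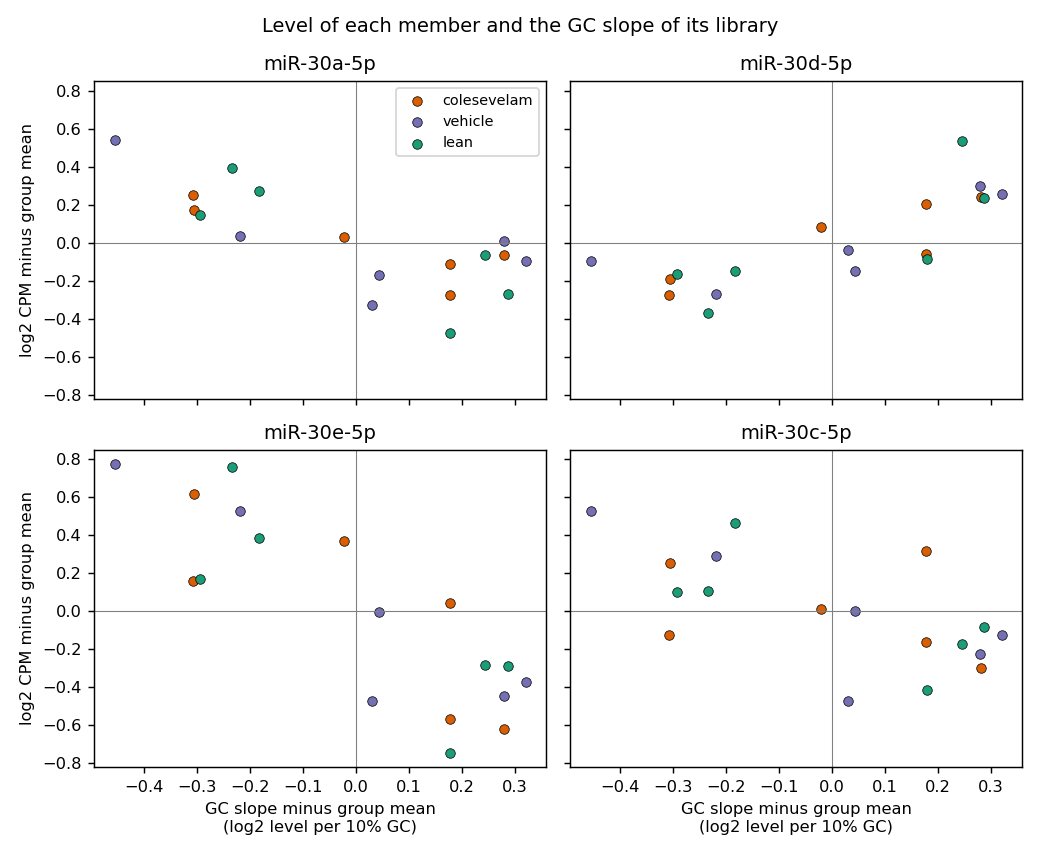
Level of each main arm (log2 CPM less its group mean) against the GC slope of the library (less its group mean), 1 point a library, coloured by group. miR-30d-5p rises with the slope (r = 0.79), while miR-30a-5p, miR-30e-5p and miR-30c-5p decline with it (r = −0.77, −0.84 and −0.64).

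Some marker miRNAs of liver cell types were called in these comparisons. Among all tested miRNAs, 9.82% were called lower for colesevelam against lean and 3.57% for colesevelam against vehicle. For vehicle against lean 6.25% were called in either direction. The 5 leukocyte markers all had a row, and their summed level was 766 to 1544 CPM in colesevelam libraries, 1036 to 1543 CPM in vehicle libraries and 1585 to 3760 CPM in lean libraries. Of the 2 that could be tested, both fell for colesevelam against lean, 1 fell for colesevelam against vehicle and 1 fell for vehicle against lean. The 6 bile duct epithelial markers summed to 607 to 1044 CPM in colesevelam libraries, 498 to 1172 CPM in vehicle libraries and 731 to 2177 CPM in lean libraries, and both of the 2 tested fell for colesevelam against lean, as did 1 for vehicle against lean. Of the 7 hepatocyte markers, all tested, 2 fell for colesevelam against lean and none was called in the other comparisons. The 5 stellate cell and stromal markers summed to 32781 to 62392 CPM in colesevelam libraries, 35061 to 50461 CPM in vehicle libraries and 33742 to 48623 CPM in lean libraries, and none of the 3 tested was called. The endothelial pair summed to 5058 to 12563 CPM in colesevelam libraries, 3475 to 7947 CPM in vehicle libraries and 5368 to 12310 CPM in lean libraries, also with no call. The 2 erythroid markers with a row summed to 56.8 to 371 CPM in colesevelam libraries, 82.5 to 294 CPM in vehicle libraries and 165 to 466 CPM in lean libraries, and the 1 tested was not called. No marker with a row was at 0 throughout a group. Their part in the results for miR-30c-5p and miR-30d-5p was not tested.

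The authors' deposited table gives all 4 members as far lower in both obese groups than in lean rats, and it differs from the values above in scaling. The authors' size factors, as recovered, ran from 0.712 to 1.38, while total counts of the libraries ran from 32936 to 881452. These factors thus span far less than the library depths do. In the authors' deposited table the log2 fold changes for colesevelam against lean are −2.67 for miR-30a-5p, −3.77 for miR-30c-5p, −3.15 for miR-30d-5p and −3.03 for miR-30e-5p, and the median over all miRNAs with a value there is −2.87. For vehicle against lean the authors' deposited table gives −2.32, −2.79, −2.16 and −2.49 for the same members, with a median of −2.41. With the authors' size factors in edgeR, 110 of the 112 miRNAs were called for vehicle against lean and 109 for colesevelam against lean, all but 1 of them lower in each case. Relative to the median of all miRNAs in that model, miR-30c-5p stood at −1.01 for colesevelam against lean, miR-30d-5p at −0.40, miR-30e-5p at −0.27 and miR-30a-5p at 0.08. For colesevelam against vehicle the authors' deposited table gives −0.99 for miR-30d-5p (adjusted p = 0.106) and −0.98 for miR-30c-5p (adjusted p = 0.180). The median over all miRNAs there is −0.36. The authors marked both members as significant, with unadjusted p-values of 0.0101 for miR-30d-5p and 0.0414 for miR-30c-5p in the authors' comparison. They did not mark miR-30a-5p or miR-30e-5p. Among the 3p arms tested here, the authors also marked miR-30c-2-3p, at −0.97 (unadjusted p = 0.0309 and adjusted p = 0.162 in the authors' comparison). miR-30a-3p and miR-30e-3p were not marked. Relative to the median of the model with the authors' size factors, miR-30d-5p stood at −0.63 and miR-30c-5p at −0.62.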

How the data were processed

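The authors deposited one table with an estimated count per mature miRNA and library, unscaled. Per the file headers it also holds, for each comparison, the mean scaled count of each miRNA, the log2 fold changes, the p-values and a mark of significance. The submitters' processing notes name Bowtie 1.1.2 and DESeq2 1.18.1. For trimming, genome build, miRNA annotation and the counting tool, the sources used here give nothing. Per the labels' protocols, RNA came from frozen liver with a Norgen total RNA kit, and libraries were made with an Illumina TruSeq RNA kit; how small RNA was selected is not given. Of 7218 values 297 are not whole, so counts were rounded. No column of values per library was left unmatched.

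Rows were kept by filterByExpr (minimum count 10, minimum total 15), which left 112 of 401 rows with 99.5% of the counts. They were scaled by TMM and tested with edgeR 4.0.16 under R 4.3.3 (quasi-likelihood with robust dispersions, a single model of 18 libraries, Benjamini-Hochberg adjustment, threshold 0.05). Counts varied between libraries of a group by a biological coefficient of variation of 36.2%. Ratios were log2 of counts plus 0.5 and were compared by exact permutation tests (numpy 2.4.6, Python 3.11.15). The authors' size factors were recovered from the mean scaled counts, which they gave back for 491 of 492 values. DESeq2 1.42.0 and limma-voom (limma 3.58.1) were alternatives, beside other scalings, filters, library sets and a GC slope. The scripts were tested on simulated data. Intervals from edgeR cover the spread between libraries; floors cover counting error only, since PCR copies cannot be told from molecules in these reads.

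The miRNAs named are the members, the 3p arms of their precursors, miRNAs with the same seed, the 3 most correlated miRNAs per member, their neighbours in rank and the cell type markers. The members, lists and tests were chosen with earlier results of these data known.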

Additional observations from a re-analysis of the deposited data

Results flagged for a closer look

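Of 36 sets of 6 values checked for a library far from the rest, 4 held one by Dixon's test at its 95% level, where chance alone gives about 1 in 20. For miR-30a-5p, vehicle library 4 had 48161 CPM, and the next highest vehicle library had 33954 CPM. For miR-30a-3p, the highest vehicle library had 1205 CPM, and the next had 910 CPM. The log2 ratio of miR-30a-5p to miR-30a-3p was 5.77 in lean library 6, and the next highest lean value was 4.91. The log2 ratio of miR-30e-5p to miR-30e-3p was 4.12 in lean library 6, and the next highest lean value was 3.26. Without vehicle library 4 the log2 fold change of miR-30a-5p for colesevelam against vehicle was 0.17.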

How the results depend on the processing

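Depth limits the low arms most, since a count of 0 allows up to 84.7 CPM in the shallowest library. The fall of miR-30c-5p for colesevelam against lean was −0.80 to −1.05 in fits other than that with the authors' size factors, where it was −3.77. The number of members called, with that of all miRNAs in parentheses, was for vehicle against lean 4 (110 of 112) with the authors' size factors and otherwise 0. For colesevelam against vehicle it was 0 with upper-quartile factors, the authors' size factors, no filter, a filter at 50 CPM, the replicate block, or libraries of one label number summed, 2 with library totals (14 of 112) or the GC slope (25 of 112), and 0 to 1 with a library left out. For colesevelam against lean it was 2 with RLE factors (25 of 112), without miR-192-5p (28 of 115), with DESeq2 (33 of 112) or with the GC slope (44 of 112), 4 with the authors' size factors (109 of 112), and 1 to 2 with a library left out, the 2 being without lean library 6 (32 of 112). Wherever 2 members were called, they were miR-30c-5p and miR-30d-5p. The log2 ratio of miR-30a-5p to miR-30c-5p no longer passed for vehicle against lean and colesevelam against lean as a difference of medians (0.51 and 1.01), with libraries of one label number as 1 (0.43 and 0.87) or under the replicate block (0.48 and 0.97). Label numbers as 1 and the block hardly allow a pass after adjustment over 15 tests, so these losses cannot decide on stability. Both exact permutation p-values under the block were its smallest possible, 0.03125. With label numbers as 1, the exact permutation p for vehicle against lean, 0.0317, was above its smallest possible, 0.00794. With a library left out, vehicle against lean gave 0.43 to 0.53 and colesevelam against lean 0.89 to 1.09; that for colesevelam against vehicle gave 0.42 to 0.61 and passed without colesevelam library 1. The log2 ratio of miR-30e-5p to miR-30c-5p for colesevelam against lean gave 0.52 to 0.73 with a library left out.

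Signs turned for some values that had not passed the test. For miR-30a-5p, vehicle against lean was −2.32 with the authors' size factors, −0.035 with label numbers summed, and −0.060 to 0.14 with a library left out. Its colesevelam against vehicle value was 0.040 with upper-quartile factors, 0.018 at 50 CPM, 0.012 in limma-voom, 0.018 with the block, 0.019 with label numbers summed, and −0.026 to 0.17 with a library left out. Its colesevelam against lean value was −2.67 with the authors' size factors, −0.10 without miR-192-5p, −0.0060 without a filter, −0.016 with label numbers summed, and −0.036 to 0.21 with a library left out. For miR-30d-5p, vehicle against lean was −2.16 with the authors' size factors and −0.031 with the GC slope. For miR-30e-5p, vehicle against lean was 0.12 with the GC slope, and colesevelam against vehicle was −0.21 to 0.13 with a library left out. Leaving out a library gave, for the log2 arm ratio of Mir30a, −0.016 to 0.30 for colesevelam against vehicle, and for that of Mir30e, −0.29 to 0.034 for colesevelam against vehicle and −0.22 to 0.092 for vehicle against lean. The cause was not tested. With the authors' size factors the median of all miRNAs was −2.38 (vehicle against lean), −0.36 (colesevelam against vehicle) and −2.76 (colesevelam against lean).

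Libraries of the same sample number did not deviate together. Correlations over 0.1 were found in 3 of 6 such pairs between colesevelam and vehicle, 1 between colesevelam and lean, and 2 between vehicle and lean; 2, 1 and 1 of the 6 correlated best with their own number. With the replicate block, miR-30d-5p was at −0.59 for colesevelam against vehicle (adjusted p = 0.0909 in edgeR) and miR-30c-5p at −0.88 for colesevelam against lean (adjusted p = 0.00932 in edgeR). No paired values are given for miR-30b-5p, whose alternatives were not run.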
